A study of Mus musculus with 12 samples.

Results

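The comparison described here sets mammary epithelial cells grown as spheroids inside a gel against the same kind of cells grown as monolayers, after 48 h in each format. It rests on 6 of the 12 libraries of the series, 3 a side, chosen by their labelled format and time, and it covers all genes: 13951 of the 28427 rows of the count table held enough counts to be tested. All cells were mammary epithelial cells of C57BL/6 mice, without a stated transgene. Monolayers were replated on collagen-coated dishes. Spheroids were cast as gels of 100 µL from a suspension of 700000 cells per mL mixed into Matrigel, a gel rich in laminin and other basement membrane proteins, of the kind sold with reduced growth factors. Cells in both formats received progesterone at 1 µM and prolactin at 1 µg/mL, so no group was without these hormones. The series names 3 biological replicates a group. The labels do not say whether they came from separate animals, so the p-values measure the spread between these samples. Dish against gel, collagen against Matrigel and the shape of the culture change together between the groups and cannot be told apart. A medium change, with a time of 48 h, is recorded for the spheroids only, so feeding may differ between the groups too.

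The mammary gland is a ducted epithelium of luminal cells, which make milk, and basal or myoepithelial cells, which contract and lie on a basement membrane. On stiff surfaces, epithelial cells spread, assemble actin cables and switch on genes of the transcription factor partners YAP and TAZ and of serum response factor (SRF). In a basement membrane gel, mammary cells round up into hollow or solid balls, and prolactin can then switch on milk genes through the factor STAT5. These are general facts about this tissue, and they set the order of the groups below.

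The 48 h libraries held 10723387 to 12871930 counts in monolayers and 8570530 to 10459646 counts in spheroids, with 16343 to 16645 genes seen at least once in each. In a principal component analysis of the 6 libraries the first component held 82.9% of the variance and separated the formats, and the second held 5.53% and set the third monolayer apart. That library also differed most from its fellows in counts (chi-square per degree of freedom of 17.2 and 9.21, against 2.43 to 4.9 in the other pairs). Levels below are CPM, counts scaled to library sizes that were adjusted by TMM, a method that centres most genes. A count of 3 in a library, taken as the floor of detection, stood for 0.249 to 0.348 CPM on this scale. Intervals and floors given here cover counting error only.

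In edgeR's quasi-likelihood test, 8081 genes (57.9% of those tested) passed a Benjamini-Hochberg adjusted p of 0.05. Of these, 4402 (31.6%) rose in spheroids and 3679 (26.4%) fell. Over 2-fold changes were found in 1330 genes upward (9.53%) and 1169 genes downward (8.38%), and over 8-fold changes in 264 upward and 171 downward. The median log2 change was 0.05 over all tested genes, 0.61 over those that rose and -0.66 over those that fell. The 3 spheroid values lay wholly above the 3 monolayer values in 32.7% of the tested genes and wholly below in 27.3%, together 60%. Among the called genes the groups did not overlap for 7607 and overlapped for 474. At an unadjusted p under 0.05 the count was 8634. Genes over 2-fold higher took 2.37% to 2.42% of the counts in monolayers and 9.61% to 9.85% in spheroids, and genes over 2-fold lower went from 17.6% to 18.5% down to 5.45% to 5.56%. The split of calls rests on the scaling: rises made up 54.5% of the calls under TMM, 65.1% when libraries were scaled to their totals (a shift of 0.109 in the median over all genes) and 65.2% on the log2 FPKM values. In bulk RNA, fewer cells of a type and less RNA per cell cannot be told apart, and this holds for every result below. Genes named in more than 1 gene list count in each. Counts of called members in each list are to be read beside the 31.6% higher and 26.4% lower of all tested genes.

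**Figure D1:**
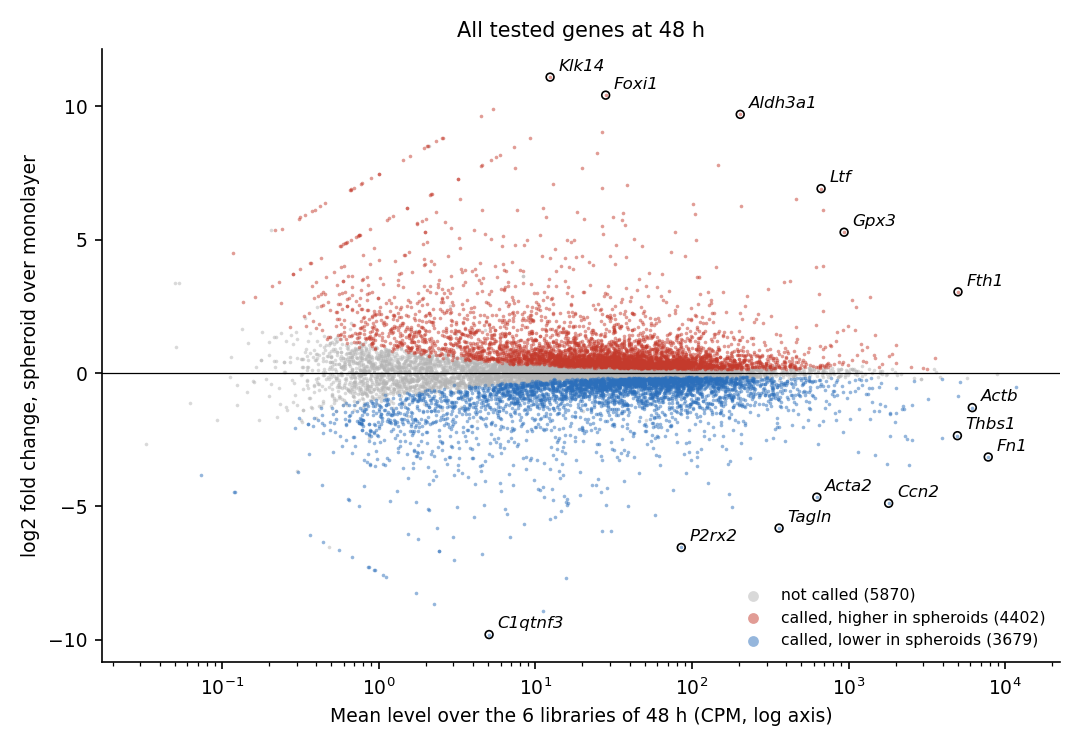
Log2 fold change of spheroids over monolayers at 48 h (vertical axis) against the mean level over the 6 libraries in CPM (log axis), 1 point for each of the 13951 tested genes, red for the 4402 that rose, blue for the 3679 that fell and grey for the rest. Called genes lie on both sides over most of the range of levels, and named points run from Klk14 and Foxi1 at the top to C1qtnf3 at the bottom.

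Milk genes stood far higher in spheroids. Of the 16 tested, 15 rose and none fell (median log2 change 2.81, or 2.50 with genes at or near 0 in monolayers set to their bound), where 31.6% of all tested genes rose. The best known hormone element in this group lies in the promoter of Csn2, the gene of beta-casein. Its promoter is printed with the STAT5 match (TTCNNNGAA, read on both strands) in capitals. It is the stretch of 250 bases before the start of the gene, on the minus strand, chr5:87699426-87699675 in GRCm38.p6, from RefSeq.
Csn2: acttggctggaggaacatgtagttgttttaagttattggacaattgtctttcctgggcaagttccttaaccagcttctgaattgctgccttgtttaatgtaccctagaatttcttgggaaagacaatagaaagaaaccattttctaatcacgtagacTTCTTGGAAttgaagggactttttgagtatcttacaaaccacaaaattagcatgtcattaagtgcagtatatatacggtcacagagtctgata
The match starts at base -93 from the start. In all, 3 of the 11 milk genes with a promoter sequence held such a match (27.3%: Csn1s1, Csn2 and Glycam1), against 7.18% of 27025 mouse promoters of the same length. Glycam1 had no count in any of the 6 libraries. Among genes with a promoter sequence, 5.33% of those over 2-fold higher and 5.53% of those over 2-fold lower held a match. A match is a run of letters and does not show binding.

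Csn2 stood at 0.882, 0.415 and 0.447 CPM in the monolayers and 70.7, 77.3 and 81 CPM in the spheroids. All 3 spheroids lay far above all 3 monolayers, and the change was 7.04 ± 0.2 (SE) on the log2 scale. Csn1s1, another casein of the micelle, stood at 0.196, 0.166 and 0.358 CPM in the monolayers and 5.39, 5.68 and 4.79 CPM in the spheroids, 21.1-fold higher. Csn3, kappa-casein, which coats the micelle, stood at 53.1 ± 5.99 CPM in monolayers and 399 ± 21.4 CPM in spheroids (mean ± SD, n = 3 each). Lalba, the whey protein that directs lactose synthesis, had no count in monolayers and 5.49, 4.98 and 3.45 CPM in spheroids, at least 52.2-fold higher taking 3 counts over the group as the floor. Wap, the whey acidic protein gene, had no count in any of the 6 libraries, so this late milk gene was not detected at this depth (3 counts stand for up to 0.348 CPM). Wfdc18, a small secreted protein, was the tested milk gene that did not pass (log2 change 0.23, adjusted p = 0.212). Reads may be divided among casein genes of similar sequence.

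Genes of milk fat secretion rose as well: all 9 tested members passed. Fabp3, too low to test, went the other way, with 45 counts over the monolayers and 7 over the spheroids. Btn1a1 and Xdh, whose proteins join in the coat of the fat droplet, rose 4.35-fold and 4.29-fold. Muc15, a mucin of that coat, went from 2.3 to 41.6 CPM. Folr1, a folate receptor, rose 6.57-fold, and Mfge8, a coat protein that binds lipid, 1.76-fold. Thrsp, a regulator of fat synthesis, had no count in monolayers and was at least 9.49-fold higher. Plin2, which covers lipid droplets in many cell types, stood at 448, 474 and 500.4 CPM in the monolayers and 861, 901 and 917 CPM in the spheroids, a rise of 1.88-fold without overlap.

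**Figure D2:**
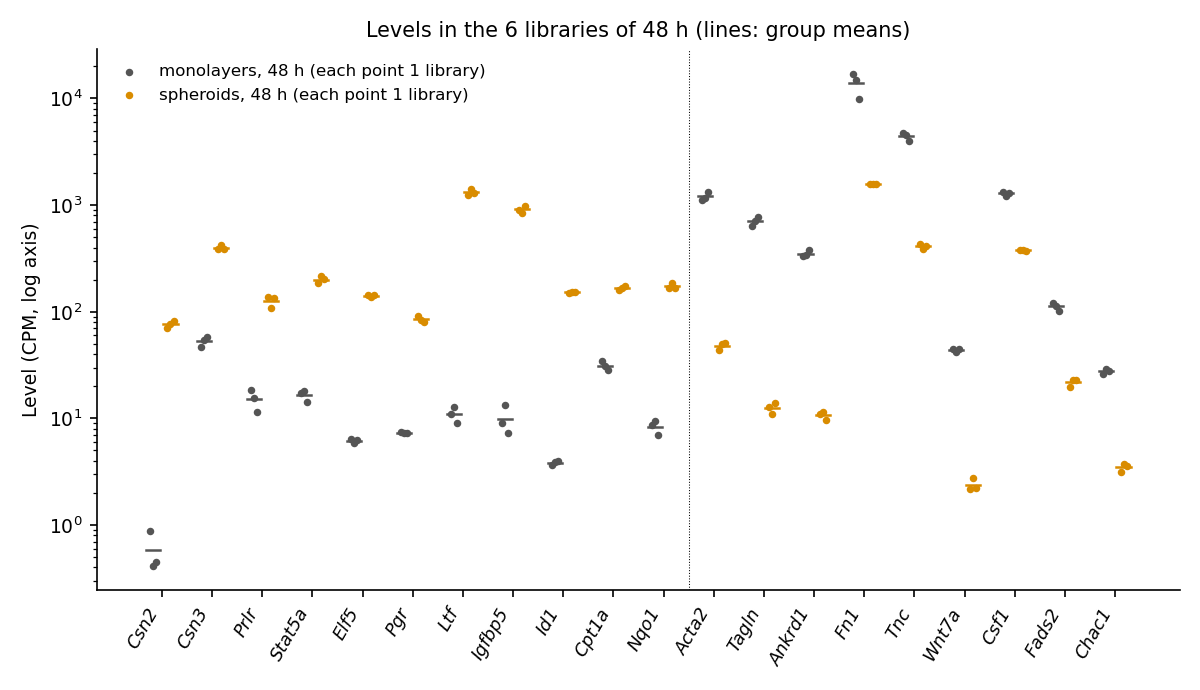
Level of selected genes in each of the 6 libraries in CPM (log axis), 1 point a library with a line at the group mean, monolayers in grey and spheroids in orange. Genes left of the dotted line were higher in spheroids and genes right of it lower, and the groups do not overlap for any gene drawn, for example 6.17 against 142 CPM in the mean for Elf5.

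The receptors that read prolactin and progesterone were higher too. Prlr, the prolactin receptor, stood at 18.6, 15.6 and 11.4 CPM in the monolayers and 137, 109.6 and 134 CPM in the spheroids. Stat5a, the factor it activates, stood at 17.4, 18.2 and 14.3 CPM in the monolayers and 184, 216 and 201 CPM in the spheroids, and Stat5b, its close relative, rose only 2.08-fold. Neither gene's groups overlapped, and the rises of Prlr and Stat5a were 8.39-fold and 12-fold. Elf5, the factor of alveolar cells that acts with STAT5, stood at 6.37, 5.89 and 6.26 CPM in the monolayers and 144, 137 and 145 CPM in the spheroids, a log2 change of 4.52 ± 0.0799 (adjusted p = 3.76e-18, edgeR). The inhibitors of this route did not move as 1 group. Cish, Socs1 and Socs3 rose 1.7-fold, 2.4-fold and 2.78-fold, while Socs2 fell 1.3-fold. Jak2, the kinase between receptor and STAT5, did not pass (log2 change 0.09, adjusted p = 0.308).

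Of the steroid receptors, Pgr and Esr1 rose and 5 of the 7 tested did not pass. Pgr, the progesterone receptor, stood at 7.45, 7.22 and 7.34 CPM in the monolayers and 91.1, 83.9 and 79.8 CPM in the spheroids. The monolayer values lay close together, and the rise was 11.6-fold. Esr1, the estrogen receptor, stood at 5, 6.22 and 3.58 CPM in the monolayers and 23.9, 21 and 26.2 CPM in the spheroids, 4.78-fold higher. Of the steroid-responsive genes, 8 of 9 rose. Among them were Wnt4 (9.48-fold), a progesterone-induced signal of the gland, Areg (3.57-fold), the growth factor that carries the estrogen signal to neighbours, Greb1 (5.67-fold), an estrogen-induced cofactor, and Zbtb16 (9.59-fold) and Fkbp5 (1.81-fold), which answer to progesterone or glucocorticoid. Tnfsf11, which encodes the RANK ligand, was too low to test. Sgk1, a kinase induced by corticoids, was the member that fell (1.74-fold).

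Luminal transcription factors rose in the main. Of 23 tested, 18 rose and 3 fell (median log2 change 1.33). Gata3, a master factor of luminal cells, stood at 37.4, 37.7 and 37.8 CPM in the monolayers and 102, 101 and 101 CPM in the spheroids, with an SD under 1 CPM in each group, and rose 2.69-fold. Tfap2c and Grhl1, epithelial factors, rose 4.13-fold and 4.49-fold, and Spdef, a factor of secretory cells, 3.65-fold. Cited1, a cofactor of hormone-sensing cells, stood at 0.196, 0.746 and 0.626 CPM in the monolayers and 15.6, 18.5 and 17.8 CPM in the spheroids, 31.5-fold higher. Foxa1, the partner of the estrogen receptor, rose by a log2 change of 0.42. Those that fell were Bcl11a (2.03-fold), Runx1 (1.38-fold) and Elf3 (log2 change -0.32).

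Basal factors went both ways, with 7 higher and 6 lower of 17, where 31.6% of all tested genes rose and 26.4% fell. Trp63, the p63 factor that defines basal epithelium, stood at 10.5, 9.79 and 8.32 CPM in the monolayers and 37, 34.3 and 32.2 CPM in the spheroids, 3.62-fold higher. Id4, an inhibitor of helix-loop-helix factors in basal cells, rose 7.96-fold. Factors tied to a mesenchymal state fell: Zeb2 by 1.86-fold, Snai2 by 1.68-fold and Twist1 by 1.37-fold, while Snai1 rose 2-fold. On surface markers, Ly6d, a luminal marker, stood at 0.588, 2.07 and 1.43 CPM in the monolayers and 54.8, 54 and 49.6 CPM in the spheroids. Cd14, a co-receptor for bacterial lipid found on luminal progenitors, rose 4.82-fold. Kit rose by a log2 change of 0.40, and Prom1, another luminal marker, did not pass (log2 change -0.25, adjusted p = 0.0546). Cd44, an adhesion receptor of basal cells, fell 1.78-fold and Lgr5, a stem cell receptor, 2.89-fold from a level of only 1.67 CPM. On the log2 FPKM values, 6 rather than 11 of the 55 lineage genes were lower.

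Keratins, the filament proteins of epithelia, did not follow the luminal and basal split. The abundant luminal pair Krt8 and Krt18 fell: Krt8 stood at 3946, 4257 and 4543 CPM in the monolayers and 2084, 2281 and 2075 CPM in the spheroids, and Krt18 at 2475, 2662 and 3016 CPM in the monolayers and 914, 972 and 928 CPM in the spheroids. Krt7 fell 2.79-fold, while Krt19, also luminal, rose 3.37-fold. The basal pair Krt5 and Krt14 rose 2.83-fold and 2.09-fold, and Krt17, of basal and wounded epithelium, fell 3.7-fold. Acta2 and Cnn1, contractile genes that are also basal and myoepithelial markers, fell, as given below, so markers of these cells did not move together. Krt15 had 1 count in monolayers and stood at 4.34 ± 0.266 CPM in spheroids, a ratio of 145 (95% interval for counting error, 25.5 to 5762). Krt6a, a keratin of wounded and squamous epithelium, stood at 58.3, 63.9 and 61.6 CPM in the monolayers and 559, 561 and 522 CPM in the spheroids. Krt16 rose 6.91-fold, Krt79 19.5-fold and Krt4 20.0-fold. Krt80 fell 2.87-fold, from 158 to 55.2 CPM. Of the 7 wound and squamous keratins tested, 5 rose and 1 fell. Of the 13 listed wound and squamous keratins 6 were too low to test.

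Proteases and barrier genes known from skin included some of the steepest rises, up to that of Klk14, which had the largest fitted change of all tested genes. All 6 tested kallikreins and their inhibitor rose (median log2 change 6.84, 6.77 at bounds). Klk14, a trypsin-like kallikrein, had no count in monolayers and 20.5, 27.7 and 26.4 CPM in spheroids, at least 274-fold higher. Klk10 stood at 1.08, 1.16 and 1.61 CPM in the monolayers and 278, 311 and 289 CPM in the spheroids, 225-fold higher. Spink5, which inhibits kallikreins, stood at 0.196, 0 and 0.0895 CPM in the monolayers and 59.8, 42.3 and 58.7 CPM in the spheroids, a ratio of 603 (95% interval for counting error, 206 to 2925). Tgm1, which cross-links the cornified envelope, rose 9.51-fold, and Sprr1b, an envelope protein, had 1 count in monolayers, a ratio of 80.7 (95% interval for counting error, 14 to 3232). Ivl, involucrin, rose 3.99-fold. Lce1h, a late envelope gene, went the other way, from 30.6, 27 and 36.8 CPM to 0.0946, 0 and 0.334 CPM, a 205-fold fall with 4 counts left in spheroids. Of the 28 envelope and barrier genes listed, 19 were too low to test, Loricrin and Flg among them, so most of the envelope genes could not be compared at this depth. Kallikreins resemble each other in sequence, and reads may be shared between them.

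Antimicrobial and acute phase genes of mucosal surfaces rose in 15 of 19 (median log2 change 3.59, 2.29 at bounds). Ltf, lactoferrin, an iron-binding protein of milk, stood at 11.1, 12.7 and 9.13 CPM in the monolayers and 1253, 1411 and 1310.3 CPM in the spheroids. Chi3l1, a secreted chitinase-like protein, stood at 18.8, 22.7 and 16.7 CPM in the monolayers and 1322, 1371 and 1369 CPM in the spheroids. For each gene all 3 spheroids lay far above all 3 monolayers, with rises of 120.4-fold and 69.5-fold. Slpi, an inhibitor of leukocyte proteases, rose 16.2-fold, and Pigr, which carries antibodies into milk, had a ratio of 14.2 (95% interval for counting error, 3.53 to 124) over 2 counts in monolayers. Defb1, a defensin, also had 2 counts in monolayers, a ratio of 57.5 (95% interval for counting error, 15.5 to 482). Saa1, an acute phase protein, had 1 count in monolayers and 8.99, 9.15 and 9.35 CPM in spheroids, a ratio of 306 (95% interval for counting error, 54.4 to 12134). Lcn2, lipocalin 2, was the member that fell, from 1809.6 to 1399 CPM. Gpx3, a secreted glutathione peroxidase, was among the genes with the largest rise in CPM, with 44.5, 49.8 and 46.6 CPM in the monolayers and 1769.8, 1895 and 1815 CPM in the spheroids. Clu, clusterin, a secreted chaperone, was among those with the largest fall, with 6196, 6512 and 7289.8 CPM in the monolayers and 1253, 1217 and 1239 CPM in the spheroids.

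**Figure D3:**
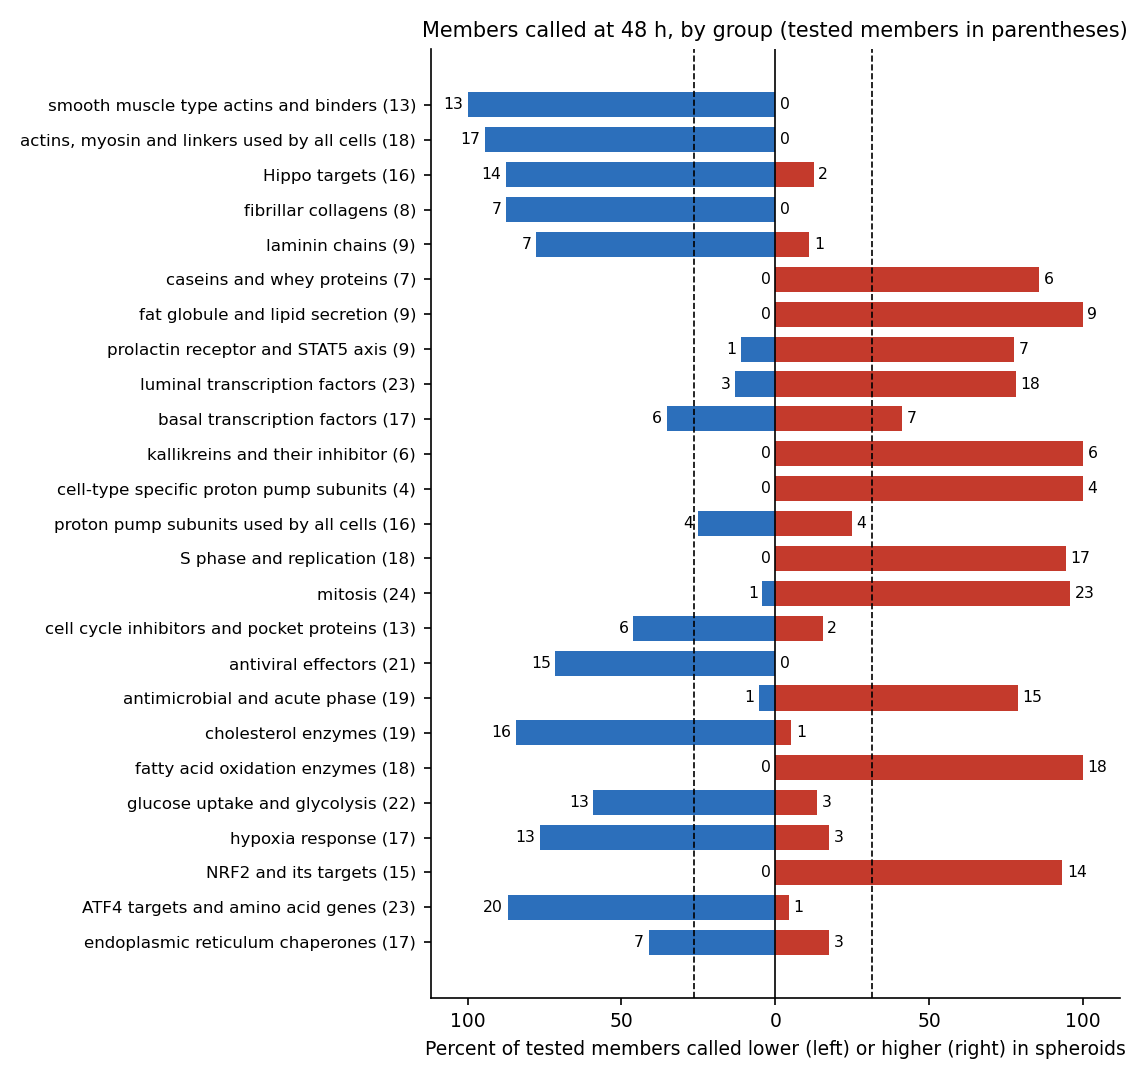
Percent of the tested members of each gene group called higher (red, to the right) or lower (blue, to the left) in spheroids at 48 h, with the number called beside each bar and dashed lines at the 31.6% and 26.4% of all tested genes. All 13 smooth muscle type genes lie to the left and all 18 fatty acid oxidation enzymes to the right, while pump subunits used by all cells have 4 on each side.

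Among tested genes with a count in each group, the largest fitted rise was that of Foxi1, the factor of acid-secreting cells in kidney, ear and airway. It had 1 count over the monolayers and stood at 64.2, 51.4 and 53.2 CPM in spheroids, a ratio of 1898 (95% interval for counting error, 340.2 to 75011). The proton pump (V-ATPase) has subunits used by all cells and others used only by acid-secreting cells and a few more. Atp6v1b1, a subunit of the specialised kind, stood at 0.098, 0.166 and 0.179 CPM in the monolayers and 48.2, 48.6 and 51.9 CPM in the spheroids, and Atp6v0a4 at 0.196, 0.166 and 0.179 CPM in the monolayers and 27.8, 19.5 and 29.7 CPM in the spheroids. Neither overlapped, and they rose 308-fold and 135-fold. All 4 tested subunits of that kind rose, with Atp6v0d2 5.62-fold and Atp6v1c2 4.67-fold higher. The subunits used by all cells had 4 higher and 4 lower of 16, with a median log2 change of -0.05. Car12, a membrane carbonic anhydrase, rose 14.5-fold, while Car2, the cytosolic one, fell 2.16-fold. Of the 19 listed regulators and transporters of acid-secreting cells, 14 were too low to test, among them Foxi2, Ascl3, Slc26a4 and Slc4a1.

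Transporters of ions, zinc and water moved upward in 24 of 35. Aqp3, a channel for water and glycerol, had 1 count in monolayers and 10.9, 11.9 and 10.7 CPM in spheroids, a ratio of 372 (95% interval for counting error, 66.4 to 14758). Aqp5, a water channel of glands, stood at 2.16, 2.65 and 3.31 CPM in the monolayers and 56.6, 55.7 and 58.3 CPM in the spheroids. Atp2c2, a calcium and manganese pump of the secretory pathway in mammary cells, rose 10.1-fold. Slc30a2, which loads zinc into vesicles for milk, went from 2 counts over the monolayers to 3.93 ± 1.31 CPM, a ratio of 64.1 (95% interval for counting error, 17.3 to 536). Slc34a2, a phosphate carrier, rose 35.6-fold, and Scnn1g and Scnn1a, subunits of the epithelial sodium channel, 2.31-fold and 1.42-fold. Fth1, the heavy chain of the iron store ferritin, stood at 969, 1039 and 1236 CPM in the monolayers and 8974, 9319.6 and 8453 CPM in the spheroids. It was one of the genes with the largest gain in CPM, 8.24-fold higher, although copies of similar sequence may share its reads. Mt1 and Mt2, metal-binding metallothioneins, rose 3.09-fold and 2.68-fold. Slc4a4, a bicarbonate carrier, fell 3.97-fold.

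Genes of contractile actin fell almost without exception. Of 41 actin and SRF genes, 39 fell and none rose (median log2 change -1.31), where 26.4% of all tested genes fell. With total count scaling, or on the log2 FPKM values, 1 was higher. The SRF element (the CArG box, both strands) is shown in capitals in the promoter of Acta1, skeletal alpha-actin, and the short TEAD element (GGAATG, both strands) through which YAP and TAZ act in that of Ankrd1. Each promoter is the 250 bases before the start, both on the minus strand, chr8:123894776-123895025 and chr19:36119845-36120094 in GRCm38.p6, from RefSeq.
Acta1: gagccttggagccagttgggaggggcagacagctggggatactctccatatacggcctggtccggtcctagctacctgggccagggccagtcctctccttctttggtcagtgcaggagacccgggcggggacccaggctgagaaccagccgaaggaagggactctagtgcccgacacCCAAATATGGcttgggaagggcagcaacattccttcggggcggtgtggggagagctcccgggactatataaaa
Ankrd1: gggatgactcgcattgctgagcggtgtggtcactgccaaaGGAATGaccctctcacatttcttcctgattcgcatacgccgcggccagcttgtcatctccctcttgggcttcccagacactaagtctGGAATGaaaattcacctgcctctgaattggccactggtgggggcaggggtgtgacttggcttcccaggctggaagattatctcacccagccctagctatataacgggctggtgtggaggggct
The CArG match lies at base -73, and the TEAD matches lie at bases -210 and -123. A CArG match was present in 2 of 10 promoters of the smooth muscle type genes (20%, against 1.4% of all promoters). A TEAD match was present in 7 of 12 promoters of the Hippo targets (58.3%, against 12.6%). Ptpn14, which rose, was among those 7. Among genes with a promoter sequence, the TEAD share was 14.5% for those over 2-fold lower and 13.4% for those over 2-fold higher. For CArG it was 2.16% for those over 2-fold lower, and below the 1.4% of all promoters for those over 2-fold higher. These matches do not show binding either.

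Tagln, transgelin, an actin binder of smooth muscle and myoepithelium, stood at 631, 714 and 779 CPM in the monolayers and 12.9, 10.9 and 13.9 CPM in the spheroids, 56.2-fold lower. Acta2, smooth muscle alpha-actin, stood at 1127, 1167 and 1326 CPM in the monolayers and 44, 49.5 and 50.6 CPM in the spheroids, 25.2-fold lower. Acta1 itself went from 16.3, 16.4 and 16.8 CPM to 0.189, 0.579 and 0.223 CPM, and Cnn1, calponin, fell 29.1-fold. No value of a spheroid reached that of a monolayer in any of these genes, and all 13 members of this kind fell over 2-fold. Actins and linkers used by all cells fell less, in 17 of 18 (median log2 change -1.22). Actb, beta-actin, often used as a reference gene, stood at 8007, 8486 and 9811 CPM in the monolayers and 3349.7, 3784 and 3572 CPM in the spheroids, 2.46-fold lower. Vcl and Zyx, proteins of focal adhesions, fell 1.97-fold and 3.23-fold. Srf itself fell (log2 change -0.50), as did its partner Mrtfa (-0.74). Actn4, an alpha-actinin, did not pass (log2 change 0.08, adjusted p = 0.315).

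In the Hippo pathway, which restrains YAP and TAZ, 14 of 16 targets fell. Ankrd1 stood at 329.9, 339 and 376 CPM in the monolayers and 11.1, 11.6 and 9.57 CPM in the spheroids, 32.4-fold lower. Ccn1, a secreted matricellular target, stood at 1971, 1936 and 2216 CPM in the monolayers and 262, 258 and 269 CPM in the spheroids, 7.76-fold lower. Edn1, endothelin, fell 8.94-fold and Axl, a receptor kinase, 2.91-fold. Yap1 itself stood at 191, 182 and 179 CPM in the monolayers and 194, 182 and 203 CPM in the spheroids, a log2 change of 0.07 ± 0.06 that did not pass (adjusted p = 0.322, edgeR), though it passed upward with total count scaling and on the log2 FPKM values. Wwtr1, which encodes TAZ, fell 1.75-fold. Of their DNA-binding partners, Tead1, Tead2 and Tead3 fell (log2 changes -1.19, -0.87 and -0.64), and Tead4 rose 3.56-fold. Amot, a scaffold that binds YAP, stood at 346, 319 and 272 CPM in the monolayers and 29.9, 27.1 and 30.3 CPM in the spheroids, and its relative Amotl2 fell 3.86-fold. The kinase Lats2 fell 2.62-fold. The targets that rose were Ptpn14 (log2 change 0.32, with groups that overlapped) and Tgfb2 (0.47). With total count scaling 8 rather than 5 of the 36 Hippo genes were higher.

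Integrins, the receptors for matrix, fell in 13 of 20 and rose in 3. Itgb1, the beta 1 subunit shared by most of them, stood at 2856, 3072 and 3034 CPM in the monolayers and 1093, 1025 and 1034 CPM in the spheroids, 2.84-fold lower. Collagen receptor subunits fell: Itga11 by 12.8-fold, Itga1 by 2.56-fold and Itga2 by 2.48-fold. Itga2 ranged from 55.8 to 108 CPM among the monolayers, with the third monolayer lowest, and still did not overlap with the spheroids. Of the laminin receptor subunits, Itga6 stood at 133, 129 and 104 CPM in the monolayers and 464, 406 and 475 CPM in the spheroids, 3.68-fold higher, while Itga3 fell 1.54-fold and Itgb4 did not pass (log2 change 0.10, adjusted p = 0.274). Itga8, a partner of fibronectin and nephronectin receptors, rose 5.34-fold. Itga5, of the fibronectin receptor, fell 2.14-fold.

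Matrix genes fell in 29 and rose in 8 of 47. Fn1, fibronectin, stood at 17027, 15005 and 9995 CPM in the monolayers and 1577, 1585 and 1579.5 CPM in the spheroids. The third monolayer was the lowest of its group, and all monolayers lay above all spheroids, whose values hardly differed (8.86-fold lower). Tnc, tenascin C, stood at 4779.5, 4569 and 3994 CPM in the monolayers and 432, 385 and 417 CPM in the spheroids, 10.8-fold lower. Fibrillar collagens fell in 7 of 8, with Col1a1 at 4029 CPM in monolayers and 719 CPM in spheroids. Col1a1 and Col3a1 also count as fibroblast markers, and the other 7 such markers summed to a higher level in spheroids (488.1 to 545.6 CPM in monolayers against 808.3 to 864.8 CPM). Among these 7 the largest gain was that of Col6a3, itself a collagen, from 100 to 410 CPM in the mean, while Thy1 and Pdgfrb fell. The part of fibroblast markers in the changes of matrix genes was not tested. Lox, which cross-links collagen, stood at 3926, 3866 and 3663 CPM in the monolayers and 784, 689.9 and 754 CPM in the spheroids. In the basement membrane, Col4a1, the main collagen IV chain, did not pass (log2 change -0.01, adjusted p = 0.949), nor did Col4a2 (log2 change 0.05, adjusted p = 0.583). Col4a3, another collagen IV chain, fell from 4.9, 3.15 and 2.59 CPM to 1 count over the 3 spheroids, a ratio of 98.6 (95% interval for counting error, 17.4 to 3929). Nid2, nidogen 2, and Col4a6 rose 2.31-fold and 2.69-fold. Laminin chains fell in 7 of 9, with Lama1 5.63-fold lower, and Lama5 rose 1.57-fold. Col17a1, which anchors basal cells through hemidesmosomes, rose 2.93-fold. Spp1, osteopontin, a secreted protein of bone and milk, stood at 311, 339 and 382 CPM in the monolayers and 2001, 1920.3 and 1789 CPM in the spheroids, 5.53-fold higher.

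Matrix proteases went both ways, 12 higher and 18 lower of 41, where 31.6% of all tested genes rose and 26.4% fell. Mmp9, a gelatinase, stood at 335, 317 and 338 CPM in the monolayers and 16.4, 14.7 and 11.2 CPM in the spheroids, 23.3-fold lower. Mmp19 stood at 27.1, 23.7 and 26.1 CPM in the monolayers and 202, 206 and 193 CPM in the spheroids, 7.83-fold higher. Mmp15, a membrane-bound member, rose 2.66-fold, and Adamts5, which cuts proteoglycans, fell 8.08-fold. In the plasminogen system, Plau, urokinase, fell 5.53-fold. Timp3, an abundant inhibitor of metalloproteinases, did not pass (log2 change -0.04, adjusted p = 0.693).

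Junction genes gave a mixed picture, with 17 higher and 25 lower of 53, where 31.6% of all tested genes rose and 26.4% fell. Cldn4 and Cldn6, claudins of tight junctions, fell 3.31-fold and 4.79-fold. Cldn8 and Cldn10 rose 11.1-fold and 8.62-fold from under 1 CPM in monolayers. Tjp1, a scaffold of the junction, fell (log2 change -0.53), and Tjp3 rose 2.21-fold. Cdh1, E-cadherin, stood at 1169, 1155 and 1092 CPM in the monolayers and 685, 696 and 702 CPM in the spheroids, and Cdh2, N-cadherin, at 101, 96.5 and 97.4 CPM in the monolayers and 27.3, 25 and 25.9 CPM in the spheroids. Both fell, by 1.64-fold and 3.76-fold. Muc1, a mucin of the luminal face, rose 6.63-fold, and Epcam, a pan-epithelial adhesion protein, fell 1.6-fold. Gja1, connexin 43, fell 2.42-fold.

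Growth factor signals of the EGF family shifted between ligands. Of 8 tested ligands 5 rose. Areg stood at 33, 37.1 and 43.1 CPM in the monolayers and 130.5, 136 and 138 CPM in the spheroids, and Epgn, epigen, at 4.02, 3.82 and 5.37 CPM in the monolayers and 40.5, 32.1 and 35.3 CPM in the spheroids. Btc rose 3.18-fold, Ereg 2.38-fold and Nrg2 10.2-fold. Hbegf, a ligand released by strain and injury, fell, with 124, 130.2 and 138 CPM in the monolayers and 25.1, 28.4 and 27.6 CPM in the spheroids, 4.86-fold lower. Of the receptors, Egfr fell 1.72-fold, and Erbb2 and Erbb3, which pair with each other, rose 1.77-fold and 2.17-fold. Feedback inhibitors went both ways: Spry1 and Spred3 fell 3.8-fold and 3.21-fold, and Spry2 and Spred1 rose 1.37-fold and 1.49-fold. Immediate early genes went both ways, 9 higher and 10 lower of 25, where 31.6% of all tested genes rose and 26.4% fell. Fosb was 3.81-fold lower and Nr4a1 2.94-fold higher.

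In the TGF-beta and BMP group, 13 rose and 21 fell of 42. Inhba, the activin A subunit, stood at 215, 191 and 131 CPM in the monolayers and 20.0, 17.8 and 18.6 CPM in the spheroids, 9.47-fold lower. Tgfb3 rose 2.97-fold. Smad7, a classic TGF-beta target, fell 1.67-fold, whereas the Id genes, classic BMP targets, rose. Id1 stood at 3.63, 3.9 and 4.03 CPM in the monolayers and 151, 154 and 154 CPM in the spheroids, and Id2 at 5.1, 6.63 and 7.78 CPM in the monolayers and 218, 198 and 206 CPM in the spheroids. The groups were far apart in each, with rises of 39.5-fold and 31.7-fold, and Id3 rose 5.82-fold. Smad6, an inhibitor induced by BMP, rose 2.34-fold. The BMP ligands Bmp2, Bmp4 and Bmp7 did not pass (adjusted p = 0.16, 0.0569 and 0.523). Gdf6, a BMP family ligand, fell from 22.9, 21.1 and 23.3 CPM to 1 count over the 3 spheroids, a ratio of 631 (95% interval for counting error, 113 to 24973).

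Wnt ligands fell in 7 of 11. Wnt7a stood at 44.4, 42.4 and 45.1 CPM in the monolayers and 2.18, 2.78 and 2.23 CPM in the spheroids, 18.4-fold lower, and Wnt9a fell 7.68-fold. Wnt10b, a ligand of the embryonic gland, had 3 counts left over the spheroids, a ratio of 23.3 (95% interval for counting error, 7.71 to 115). The 1 ligand that rose was Wnt4, with 1.96, 2.41 and 3.31 CPM in the monolayers and 23, 24.7 and 25.8 CPM in the spheroids. Secreted inhibitors rose from near 0: Sostdc1 by 41.5-fold and Wif1 by 30.0-fold, while Dkk3 fell 4.34-fold. Notum, an enzyme that inactivates Wnt and is itself a Wnt target, had no count in monolayers and 4.83, 3.13 and 4.34 CPM in spheroids, at least 46.3-fold higher. Axin2, the standard Wnt target, did not pass (log2 change -0.09, adjusted p = 0.675).

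Notch receptors, ligands and modifiers rose in 8 of 11. Notch3, a receptor of luminal progenitors, stood at 31.1, 27.4 and 18.3 CPM in the monolayers and 108, 120.1 and 120.3 CPM in the spheroids, 4.55-fold higher. Among the ligands, Jag1 fell 4.38-fold, with 309.5, 288 and 292 CPM in the monolayers and 72, 66.9 and 63.8 CPM in the spheroids, and Jag2 rose 6.03-fold. The response genes did not move together: Hey1 stood at 0.098, 0.912 and 1.07 CPM in the monolayers and 42.8, 36.4 and 41.7 CPM in the spheroids, 55.4-fold higher, while Heyl fell 13.5-fold and Hey2 3.52-fold. In the IGF system, Igfbp5, a binding protein of milk and of involution, stood at 9.02, 13.4 and 7.25 CPM in the monolayers and 896, 851 and 985 CPM in the spheroids, 91.4-fold higher. Igfbp3, Igfbp7 and Igfbp6 fell 3.58-fold, 3.38-fold and 2.32-fold. H19, an imprinted long noncoding RNA, rose 4.69-fold.

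Interferon-stimulated genes were lower in spheroids. None of the 21 tested antiviral effectors rose and 15 fell (median log2 change -1.65). The interferon element (GAAA, then 2 bases of any kind, then GAAA, both strands) is in capitals in the promoters of Ifit1 and Isg15, whose proteins block viral RNA and tag proteins. These are the 250 bases before the start, chr19:34640639-34640888 on the plus strand and chr4:156200819-156201068 on the minus strand in GRCm38.p6, from RefSeq.
Ifit1: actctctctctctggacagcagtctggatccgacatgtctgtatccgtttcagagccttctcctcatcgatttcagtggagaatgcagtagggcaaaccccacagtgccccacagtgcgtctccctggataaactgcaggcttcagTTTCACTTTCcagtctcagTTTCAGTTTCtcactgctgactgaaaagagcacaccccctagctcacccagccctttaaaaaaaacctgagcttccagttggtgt
Isg15: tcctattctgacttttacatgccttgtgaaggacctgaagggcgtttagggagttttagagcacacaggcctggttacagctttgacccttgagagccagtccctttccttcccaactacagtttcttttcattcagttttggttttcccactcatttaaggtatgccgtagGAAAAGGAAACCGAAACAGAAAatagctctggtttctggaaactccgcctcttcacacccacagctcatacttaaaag
Matches start at bases -104 and -85 in Ifit1 and at -78, -72 and -66 in Isg15, where they overlap. In all, 9 of 17 antiviral genes with a promoter held a match (52.9%), against 3.04% of all promoters. The share was 4.21% among genes over 2-fold lower with a promoter sequence and 2.3% among those over 2-fold higher. Ifit1 stood at 4.02, 6.39 and 7.16 CPM in the monolayers and 0.473, 0.347 and 0.779 CPM in the spheroids, and Isg15 at 8.24, 11.7 and 13.2 CPM in the monolayers and 1.23, 1.51 and 2 CPM in the spheroids. The levels were low throughout, and the groups did not overlap (10.9-fold and 7.04-fold lower). Ifi44 fell 17.3-fold, Oasl2 7.17-fold and Usp18 6.28-fold. Irf7, an amplifier of the response, fell 3.18-fold. B2m, the light chain of class I molecules, fell 1.64-fold, and Tap2, a peptide transporter, rose 1.9-fold.

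Among secreted immune signals, 8 of 14 chemokines rose and 9 of 16 cytokines fell. Cxcl15, a chemokine of mucosal epithelium, had 1 count in monolayers and 12.8, 8.92 and 9.57 CPM in spheroids, a ratio of 353 (95% interval for counting error, 63 to 14008). Cxcl5 rose 7.5-fold, and Cxcl17 7.7-fold from only 4 counts over the monolayers to 28 over the spheroids. Cxcl10, an interferon-induced chemokine, fell 5.96-fold. Csf2, the growth factor of granulocytes and macrophages, fell from 7.65, 9.54 and 9.84 CPM to 2 counts over the 3 spheroids, a ratio of 128 (95% interval for counting error, 35.1 to 1059). Csf1, the macrophage growth factor, stood at 1337, 1224 and 1307 CPM in the monolayers and 383, 381 and 375 CPM in the spheroids, 3.39-fold lower. Il33, an alarm cytokine, and Il1rn, which blocks the interleukin 1 receptor, rose 9.4-fold and 11.6-fold.

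Enzymes of cholesterol synthesis were lower and enzymes of fatty acid oxidation higher in spheroids. Of 19 cholesterol enzymes, 16 fell and 1 rose (median log2 change -0.97). Fdps, which makes farnesyl diphosphate, stood at 314, 331 and 392 CPM in the monolayers and 119.6, 136 and 120.1 CPM in the spheroids, 2.76-fold lower. Insig1, the sterol sensor partner and a sensitive target of SREBP, stood at 243, 234 and 256 CPM in the monolayers and 61.9, 64.7 and 65.5 CPM in the spheroids, 3.81-fold lower. Of fatty acid enzymes 7 rose and 6 fell of 16. Fads1 and Fads2, desaturases of long polyunsaturated fats, fell 5.06-fold and 5.15-fold. Scd1 and Scd2 make the same kind of monounsaturated fat and went opposite ways. Scd1 stood at 841, 768 and 697 CPM in the monolayers and 1580.1, 1618 and 1747 CPM in the spheroids, and Scd2 at 3161, 3019 and 3086 CPM in the monolayers and 864, 849.5 and 868 CPM in the spheroids. Fasn, fatty acid synthase, did not pass (log2 change -0.17, adjusted p = 0.134), although it fell when the third monolayer was left out (log2 change -0.28).

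All 18 fatty acid oxidation enzymes tested rose (median log2 change 0.88). Cpt1a, the gate of fatty acids into mitochondria, stood at 34.4, 31.1 and 28.2 CPM in the monolayers and 159, 167 and 176 CPM in the spheroids, 5.36-fold higher. Acaa2 and Hadha, enzymes of the cycle, rose 3.93-fold and 2.4-fold. Of the PPAR regulators and targets, 13 of 16 rose. Cd36, a fatty acid carrier, stood at 1.47, 1.49 and 0.984 CPM in the monolayers and 77.3, 57.9 and 75.2 CPM in the spheroids. Pdk4, a kinase that closes glucose entry to the citric acid cycle, stood at 10.9, 9.12 and 8.95 CPM in the monolayers and 93, 82.1 and 101 CPM in the spheroids. Monolayers and spheroids did not overlap in either gene, and they rose 53-fold and 9.56-fold. Angptl4, a secreted inhibitor of lipoprotein lipase, rose 6.15-fold. Pparg and Ppargc1a, regulators of these genes, rose 4.33-fold and 4.46-fold. Fgf21, a stress hormone, was the member that fell (18-fold). Ucp2, a carrier of the inner mitochondrial membrane, stood at 151, 144 and 151 CPM in the monolayers and 1095, 1202 and 1169.5 CPM in the spheroids, 7.77-fold higher and without overlap. Fabp4, a fatty acid carrier that is one of these targets and also an adipocyte marker, rose 8.24-fold. The other 5 adipocyte markers, Adipoq and Lep among them, summed to 0 to 0.0895 CPM in monolayers and 2.23 to 3.03 CPM in spheroids, and their part in these rises was not tested.

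**Figure D4:**
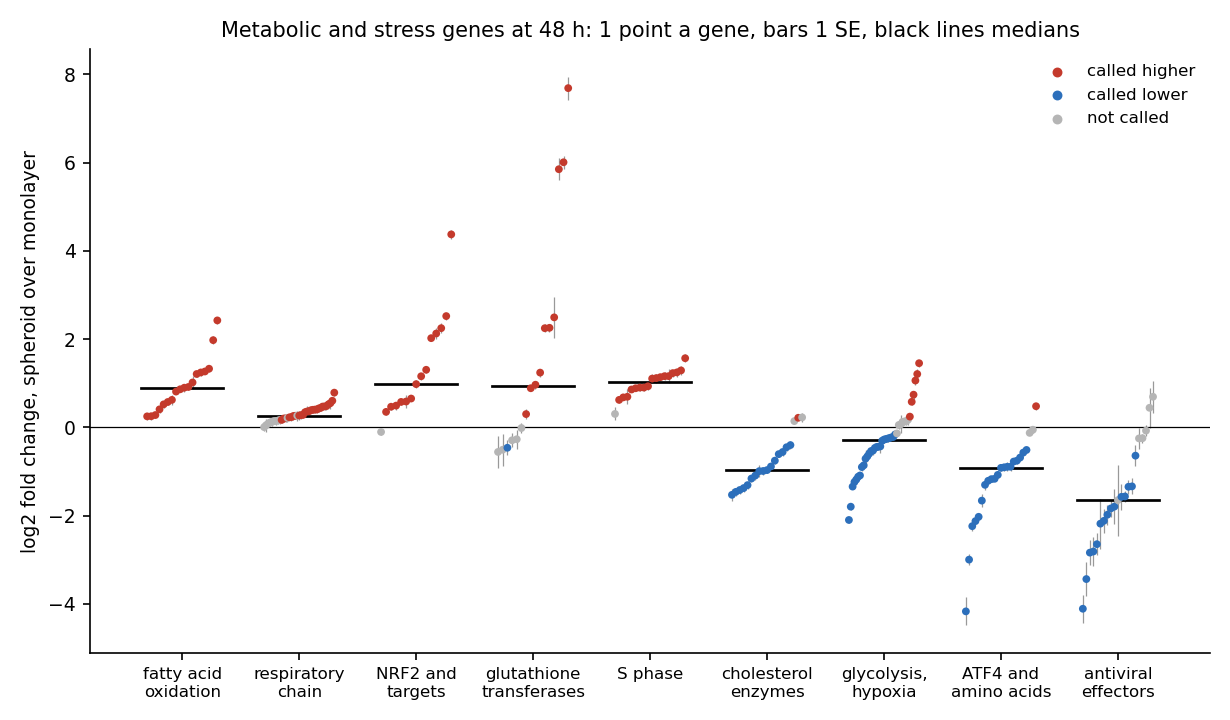
Log2 fold change of spheroids over monolayers at 48 h for each tested member of 9 metabolic, stress and other gene groups (points, bars 1 SE), red where called higher, blue where called lower and grey where not called, with black lines at the medians. Fatty acid oxidation enzymes lie wholly above 0 with a median of 0.88, and cholesterol enzymes centre on -0.97.

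Glycolysis genes fell in 13 of 22 and rose in 3, by small amounts (median log2 change -0.24). Slc16a3, the lactate exporter, stood at 170.2, 179 and 178 CPM in the monolayers and 50.2, 54.4 and 46.6 CPM in the spheroids, 3.48-fold lower, and Hk2, a hexokinase, fell 2.54-fold. Slc2a1, the main glucose carrier, fell 1.36-fold. Hypoxia response genes fell in 13 of 17. Vegfa stood at 552, 542 and 549 CPM in the monolayers and 139, 118 and 126 CPM in the spheroids, 4.29-fold lower. Epas1, which encodes HIF-2 alpha, rose 2.74-fold, and Egln3, a hydroxylase that HIF induces, 2.08-fold. With total count scaling 10 rather than 6 of the 39 genes of glycolysis and hypoxia were higher. Respiratory chain genes rose in 26 of 37 with none lower, all by less than 2-fold (median log2 change 0.27). Ndufa4, a small subunit, stood at 82.7, 95.8 and 107 CPM in the monolayers and 163, 170.5 and 159 CPM in the spheroids. The count dropped to 17 without the first monolayer.

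Detoxification genes rose in 35 of 49. Of the NRF2 targets and regulators, 14 of 15 rose. Nqo1, a quinone reductase and standard NRF2 target, stood at 8.73, 9.37 and 6.98 CPM in the monolayers and 168, 186 and 167 CPM in the spheroids, 20.7-fold higher. Gclc and Gclm, the subunits of the rate-limiting enzyme of glutathione synthesis, rose 5.73-fold and 4.05-fold. Slc7a11, the cystine carrier that feeds it, stood at 48.8, 54.5 and 40.3 CPM in the monolayers and 245, 212 and 225 CPM in the spheroids. Hmox1, heme oxygenase, rose 2.23-fold, from 197, 228 and 258 CPM to 490.3, 526 and 508 CPM. Nfe2l2, the NRF2 gene, did not pass (log2 change -0.11, adjusted p = 0.169). An NRF2 match (TGACNNNGC, both strands) was present in 3 of 11 promoters of the list (27.3%), against 10.1% of all promoters. Its share was 11.4% both among genes over 2-fold higher and among those over 2-fold lower. Glutathione transferases rose in 10 of 16. Gsta4, which handles lipid aldehydes, stood at 1.08, 1.16 and 1.07 CPM in the monolayers and 71.1, 79.5 and 65 CPM in the spheroids, 64.2-fold higher. Gsta1 stood at 0.196, 0.166 and 0.179 CPM in the monolayers and 39.7, 46 and 32.2 CPM in the spheroids, and alpha class members of similar sequence may share reads. Aldh3a1, an aldehyde dehydrogenase of cornea and stomach, stood at 0.196, 0.332 and 0.895 CPM in the monolayers and 394, 449 and 377 CPM in the spheroids. It rose 829.7-fold, and Aldh3b2, with no count in monolayers, at least 43.5-fold. Aldh1l2, a folate enzyme of mitochondria, fell 8.23-fold.

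Genes of the amino acid response, driven by ATF4, fell in 20 of 23 (median log2 change -0.92). An ATF4-type match (TGATGNAA, both strands) is in capitals in the promoters of Asns, asparagine synthetase, and Chac1, which breaks down glutathione. They are the 250 bases before the start, chr6:7693210-7693459 on the minus strand and chr2:119350992-119351241 on the plus strand in GRCm38.p6, from RefSeq.
Asns: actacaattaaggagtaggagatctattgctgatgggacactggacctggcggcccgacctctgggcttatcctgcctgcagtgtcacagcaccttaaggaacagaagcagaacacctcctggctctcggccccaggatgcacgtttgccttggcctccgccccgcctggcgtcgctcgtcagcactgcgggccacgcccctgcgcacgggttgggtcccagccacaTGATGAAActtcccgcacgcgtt
Chac1: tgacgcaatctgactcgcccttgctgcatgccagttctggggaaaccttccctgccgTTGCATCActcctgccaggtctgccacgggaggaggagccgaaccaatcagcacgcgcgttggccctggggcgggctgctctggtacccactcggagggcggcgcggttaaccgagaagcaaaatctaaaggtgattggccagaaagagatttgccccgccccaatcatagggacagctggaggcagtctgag
The matches start at bases -23 and -193. Such a match was present in 6 of 19 promoters of the group (31.6%), against 3.53% of all promoters. The share was 3.12% among genes over 2-fold lower with a promoter sequence and 2.93% among those over 2-fold higher. Asns stood at 206, 223 and 227 CPM in the monolayers and 52.8, 57 and 51.1 CPM in the spheroids, and Chac1 at 25.9, 28.9 and 28 CPM in the monolayers and 3.12, 3.71 and 3.56 CPM in the spheroids. The groups were well apart, 4.08-fold and 8-fold lower. Mthfd2, of mitochondrial folate metabolism, and Psph, of serine synthesis, fell 4.37-fold and 4.73-fold. Atf4 itself fell 1.86-fold. Slc3a2, the heavy chain of amino acid exchangers, was the member that rose (log2 change 0.48). Chaperones of the endoplasmic reticulum moved little, 3 higher and 7 lower of 17, with Hspa5, the main one, 1.72-fold lower. The inducible heat shock genes Hspa1a and Hspa1b rose 3.1-fold and 4.49-fold, and Hspb1 fell 1.77-fold.

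Cell cycle genes rose by modest folds. S phase genes rose in 17 of 18 (median log2 change 1.02) and mitotic genes in 23 of 24 (0.77). Rrm2, which makes DNA building blocks, stood at 75.3, 69.4 and 79.6 CPM in the monolayers and 219.5, 220.1 and 224 CPM in the spheroids, 2.96-fold higher. Mybl2, a factor of late cycle genes, rose 2.96-fold and Mcm5, of the replicative helicase, 2.34-fold. Pttg1, securin, was the mitotic gene that fell (log2 change -0.50). Ccnd1, cyclin D1, did not pass (log2 change -0.08, adjusted p = 0.272). Cdkn2b, the inhibitor p15, stood at 45.4, 44.1 and 50.6 CPM in the monolayers and 4.64, 5.44 and 6.34 CPM in the spheroids, 8.57-fold lower, and Cdkn2a fell 3.45-fold. Mycn fell to 2 counts over the spheroids, a ratio of 83 (95% interval for counting error, 22.7 to 690.5). Of the p53 targets, 5 rose and 8 fell of 21, with Pmaip1, a death effector, 4.36-fold lower and Sesn1, a stress protein, 2.2-fold higher. With DESeq2, 7 rather than 11 of the 37 p53 and cell death genes were higher.

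Lysosome and autophagy genes had no common direction at 48 h. Of 46 genes, 9 rose and 13 fell, and the balance turned to 16 higher and 8 lower with total count scaling and on the log2 FPKM values alike. Ctsd, the protease cathepsin D, stood at 1211, 1373 and 1364 CPM in the monolayers and 2722, 2769 and 2638 CPM in the spheroids, 2.06-fold higher. Circadian clock genes went both ways. The repressor Bhlhe40 stood at 659, 658 and 698 CPM in the monolayers and 111, 124 and 114 CPM in the spheroids, 5.77-fold lower. Ciart and Nr1d2, of the same list, fell 4.1-fold and 1.83-fold. Per2 and Hlf, of the clock and its output, rose 3.97-fold and 14.7-fold, Hlf from only 0.42 CPM in the monolayer mean.

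Markers of other cells that a mammary culture can hold were measured beside these groups, and their part in the results was not tested. Among fibroblast markers 4 rose and 4 fell of 9. Their summed level was 5019 to 5466 CPM in monolayers and 1868 to 2039 CPM in spheroids, and the lower sum came from Col1a1 and Col3a1, without which it was 488.1 to 545.6 CPM and 808.3 to 864.8 CPM. Of the rest, Col6a3 made the largest gain, from 100 to 410 CPM in the mean. Thy1 stood at 92.6, 94.9 and 108 CPM in the monolayers and 13.2, 14.8 and 13.8 CPM in the spheroids, and Pdgfra at 52.7, 42.8 and 46.2 CPM in the monolayers and 96.8, 85.2 and 90.3 CPM in the spheroids, so these fibroblast markers moved in opposite directions. Endothelial markers summed to 43.5 to 59.7 CPM and 55.9 to 64.1 CPM, with 2 higher and 3 lower of 7. Vwf was 6.05-fold higher and Kdr 2.74-fold lower, and without Vwf the sums were 39.6 to 53.8 CPM and 27.6 to 36.1 CPM. Of 8 immune markers 4 were too low to test, among them Ptprc (CD45) at 0.0829 and 0.282 CPM, and Cd3e. The 8 immune markers summed to 23.5 to 37.7 CPM in monolayers and 29.8 to 36.6 CPM in spheroids. Most of it was Itgam, which did not pass (21.2 and 19.6 CPM in the mean). Of the tested immune markers only Cd68 passed, rising 2-fold from 2.44 to 4.86 CPM in the mean. Adipocyte markers summed to 30.8 to 36.2 CPM and 273.6 to 305 CPM, nearly all of it Fabp4, with 30.8, 36.2 and 36.1 CPM in the monolayers and 278, 271 and 303 CPM in the spheroids. Plin1, of the fat droplet, had no count in monolayers and was at least 22.5-fold higher, while of the defining hormone genes Lep had 0 counts in all 6 libraries and Adipoq had 0 in monolayers and a mean of 0.172 CPM in spheroids. All 8 epithelial markers, Epcam and the main luminal and basal keratins among them, were detected in every library, with a sum of 9785 to 11270 CPM in monolayers and 7246 to 7733 CPM in spheroids.

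At 96 h the same comparison called 73.8% of the tested genes, 37.3% higher and 36.5% lower, in other libraries. Of the genes that rose at 48 h, 67.8% rose again at 96 h and 13.2% fell, and of those that fell, 66.8% fell again and 12.9% rose. For genes over 8-fold apart at 48 h, 81.1% of the rises and 86.5% of the falls were called the same way at 96 h. The interaction of culture format with time, a test of whether the effect differed between 48 h and 96 h, passed in 53.3% of genes, 26.9% with a more positive effect at 96 h and 26.4% with a more negative one.

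Several groups had another direction at 96 h. Cholesterol enzymes were lower in 16 of 19 at 48 h and higher in 15 at 96 h (median log2 change -0.97 and then 0.88), with an interaction in 17. Genes of the ATF4 group were lower in 20 of 23 and then higher in 13 and lower in 7, with an interaction in 19. Fdps moved by -1.46 at 48 h and 0.88 at 96 h, and Asns by -2.03 and 0.32. NRF2 genes were higher in 14 of 15 and then higher in 3 and lower in 8, with an interaction in 13. Hmox1 went from 1.16 to -2.97 and Slc7a11 from 2.25 to -2.52. Lysosomal proteins, 6 higher and 7 lower at 48 h, were lower in 26 of 29 at 96 h. Tight junction genes, with 9 of 17 lower at 48 h, were higher in 12 at 96 h. Actins and linkers used by all cells were lower in 17 of 18 at 48 h and in 9 at 96 h, while all 13 smooth muscle type genes were lower at each time.

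In 4 further groups most members kept their direction. Mitotic genes were higher in 23 of 24 at 48 h and in 23 at 96 h, with medians of 0.77 and 3.99. Respiratory chain genes were higher in 26 of 37 and then in 36. Milk genes were higher in 15 of 16 and then in 13. Plin2 turned from a log2 change of 0.91 to one of -1.63 (interaction -2.54 ± 0.109, adjusted p = 1.7e-12, edgeR), Cidea and Lpl did not pass at 96 h, and Wfdc18 passed then. Csn2 moved from a log2 change of 7.04 to 10.71 (interaction 3.67 ± 0.588, adjusted p = 4.38e-05, edgeR). Elf5 had log2 changes of 4.52 and 4.56, with an interaction of 0.03 ± 0.123 that did not pass (adjusted p = 0.864, edgeR). Those of Atp6v1b1 were 8.27 and 8.08, and its interaction did not pass either (adjusted p = 0.835, edgeR). Fatty acid oxidation enzymes were higher in 18 of 18 and then in 16, with Cpt1a the one that was lower at 96 h (log2 change -0.62).

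**Figure D5:**
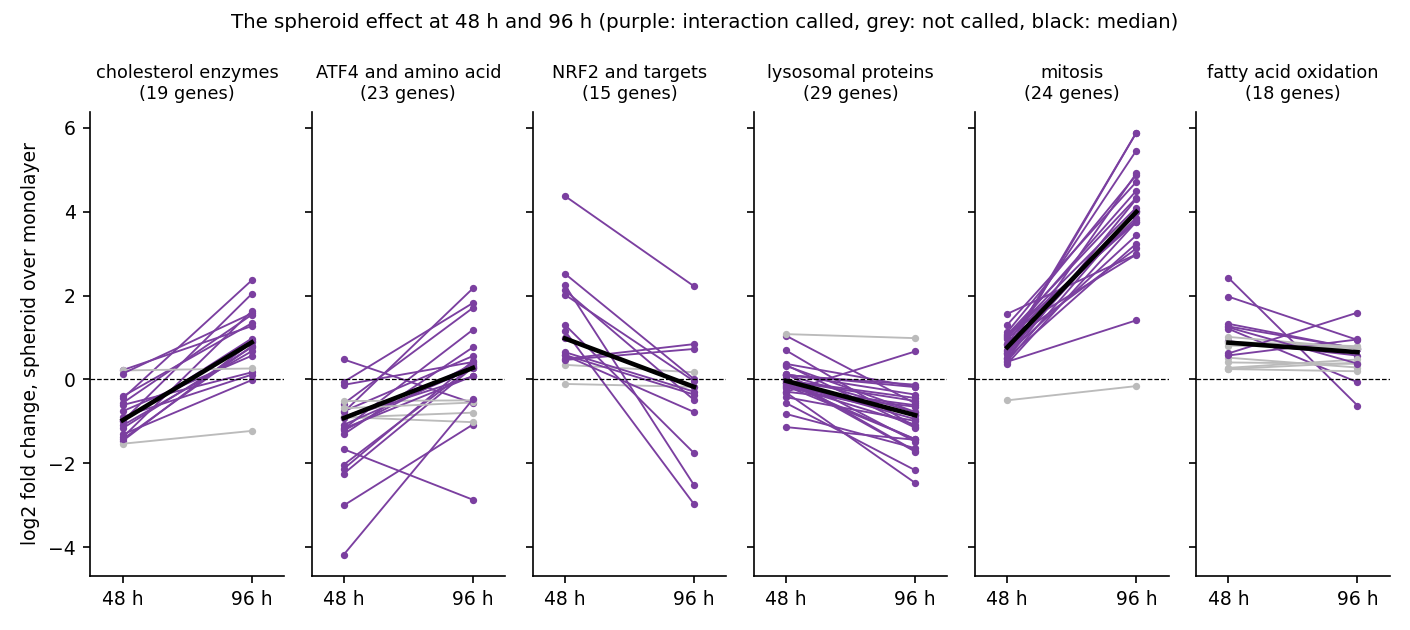
Log2 fold change of spheroids over monolayers at 48 h and 96 h for each tested member of 6 gene groups (lines, purple where the interaction was called), with the median in black. The median of cholesterol enzymes goes from -0.97 to 0.88, that of NRF2 genes from 0.98 to -0.18 and that of mitotic genes from 0.77 to 3.99.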

How the data were processed

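Per the labels, mRNA libraries were made with a TruSeq kit. The submitters' processing notes name mm9 as the build and RSEM 1.2.30, Bowtie 1.0.1 and bcl2fastq 2.15.0 as the tools, with no strand setting or option. Expected counts per gene, as the authors deposited them, were rounded to whole numbers. The other table deposited by the authors holds log2 values of FPKM plus 1. The 2 tables share their libraries, and 2093 of the 28427 rows carry several names, so overlapping or antisense genes and families of near-identical genes may share reads. Counts of all 12 libraries were fitted by group with edgeR 4.0.16 in R 4.3.3 (TMM, filterByExpr at min.count 10 and min.total.count 15, quasi-likelihood test, Benjamini-Hochberg adjustment over 13951 genes, threshold 0.05), leaving 8 residual degrees of freedom. Log2 changes carry an SE derived from the test, the size of the change over the square root of its F statistic. It can be too small or too large where a group has few counts. Genes with 1 to 3 counts in a group are given by the ratio of scaled counts with an exact Clopper-Pearson 95% interval, and genes at 0 by a bound from 3 counts over the group. Means are given with the SD of 3 libraries. Alternatives were DESeq2 1.42.0, limma 3.58.1 on the log2 FPKM, other scalings and filters, the 48 h libraries alone, a replicate block and leaving out each library. The script was tested on simulated data.

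The 33 lists (1217 symbols, 1215 matched to a row) and the members were chosen with earlier results of these data known. Rock2, H2-Q4 and Clca2 were dropped from the lists after the tables were opened because their row names were not unique. Genes were named by a rule: the 15 largest rises and falls in log2 change with a mean of at least 5 CPM, the 10 largest rises and falls in CPM, 3 rises, 3 falls and the 2 most abundant members of each list with marked genes, and 8 genes each way for the interaction. Not all of these are described. Cd68, Ciart, Col6a3, Fabp3, Itgam, Nr1d2, Pdgfrb, Spred1, Spred3 and Spry2 were described after their values were seen. Described but outside the rule, chosen after their values were seen, were Acaa2, Actn4, Amotl2, Aqp5, Ascl3, Asns, Atp2c2, Atp6v0d2, Atp6v1c2, Axl, Bmp2, Bmp4, Bmp7, Btc, Btn1a1, Car12, Cd14, Cd3e, Cidea, Cish, Col3a1, Col4a2, Col4a6, Csn1s1, Cxcl17, Cxcl5, Defb1, Dkk3, Edn1, Elf3, Erbb2, Erbb3, Ereg, Fdps, Fkbp5, Flg, Folr1, Foxa1, Foxi2, Gclc, Gclm, Gja1, Glycam1, Greb1, Grhl1, Gsta4, Hadha, Hey2, Hmox1, Id3, Id4, Insig1, Irf7, Isg15, Itga1, Ivl, Jak2, Kdr, Kit, Krt16, Krt19, Krt6a, Krt79, Krt80, Lama1, Lama5, Lats2, Lep, Loricrin, Lpl, Mcm5, Mrtfa, Mt1, Mthfd2, Muc15, Mybl2, Nfe2l2, Nid2, Notch3, Pigr, Pparg, Ppargc1a, Prom1, Ptpn14, Pttg1, Rrm2, Runx1, Scnn1g, Slc26a4, Slc3a2, Slc4a1, Slpi, Smad6, Smad7, Snai1, Snai2, Socs1, Socs3, Spdef, Sprr1b, Srf, Stat5b, Tap2, Tead1, Tead2, Tead3, Tfap2c, Tgfb3, Tgm1, Thrsp, Tjp1, Tjp3, Tnfsf11, Twist1, Usp18, Vcl, Wfdc18, Wnt4, Xdh, Zbtb16 and Zyx. Promoters come from RefSeq, GRCm38.p6, and their positions are not those of mm9.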

Additional observations from a re-analysis of the deposited data

Results flagged for a closer look

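The spheroid effect differed between 48 h and 96 h in 7433 genes by the edgeR interaction test. Those named here are the 8 each way with the largest differences among genes called in opposite directions at the 2 times, with a mean of at least 5 CPM over the 12 libraries, and the values are the 96 h effect minus the 48 h effect on the log2 scale. Among genes whose effect was more positive at 96 h, the difference was 5.86 for Ccl9, a chemokine, 5.14 for Slc7a3, a carrier of basic amino acids, 4.80 for Pimreg, a mitotic protein, and 4.38 for Car2, a carbonic anhydrase. It was 3.52 for Bcl2l15, 3.39 for Erfe, a hormone of iron metabolism, 3.38 for Dock11 and 3.28 for Plekhs1. Slc7a3 went from a log2 change of -4.71 at 48 h to 0.44 at 96 h, and Car2 from -1.11 to 3.26.

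Among genes whose effect was more negative at 96 h, the difference was -5.39 for Abcc4, an exporter of cyclic nucleotides and drugs, -5.09 for Cck, the hormone cholecystokinin, and -5.00 for Angptl4, an inhibitor of lipoprotein lipase. It was -4.93 for Xylt1, which starts proteoglycan chains, -4.86 for Pdk4, -4.76 for Slc7a11, -4.74 for Calcrl, a peptide receptor, and -4.64 for S100a8, a calprotectin subunit. Angptl4 went from 2.62 to -2.38 and Cck from 1.93 to -3.16. The 48 h calls of Bcl2l15 and Xylt1 were lost in at least 1 of the alternative settings. Groups of 3 libraries were not tested for outlying samples.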

How the results depend on the processing

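Of 314 named tested genes, 279 kept their direction and side of the threshold in all 15 alternative settings. Another 17 kept them where tested but had no value under the stricter filter, with the 48 h libraries alone, or both. The remaining 18 did not keep them (Atp6ap1, Atp6v0c, Bcl2l15, Ccng1, Fasn, Gapdh, Hes1, Hsp90ab1, Igf1r, Itgb4, Itgb7, Itgb8, Lif, Notch2, Pecam1, Tgfb1, Xylt1 and Yap1); none reversed. Genes outside the naming rule were not followed. On log2 FPKM with limma, the count of genes higher by over 2-fold was 853 and that of genes lower by over 2-fold 555, against 1330 and 1169. There, and with total count scaling, actin genes higher were 1 (0), Hippo genes higher 8 (5), and lysosome and autophagy genes 16 higher and 8 lower (9 and 13). Lineage genes lower were 6 (11) with log2 FPKM, and glycolysis and hypoxia genes higher 10 (6) with total counts. DESeq2 had 7 (11) p53 and cell death genes higher, and without a filter 1 (0) milk gene was lower. The cause was not tested. Leaving out 1 library gave 7417 to 8145 called genes, 3991 to 4443 higher, 3422 to 3702 lower, 6983 to 7724 interactions and 5058 to 5732 calls found again at 96 h. It gave 0 to 1 actin genes higher, 0 to 1 milk genes lower and 17 to 32 respiratory chain genes higher. With the replicate block 8110 genes were called (4429 higher, 3681 lower), 7417 interactions passed and no named call changed. Same-numbered libraries did not deviate together (correlations 0.0353, -0.0519 and -0.041). With 3 libraries a group, such correlations cannot show whether same-numbered libraries share a source. The 48 h libraries alone give no interaction. Depth limits genes near the floor of 3 counts.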

Other observations

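Several of the largest changes lay in genes outside the lists above. C1qtnf3, a secreted relative of adiponectin, stood at 10.4, 9.21 and 10.8 CPM in monolayers and had no count in spheroids, at least 95-fold lower. P2rx2, an ATP-gated ion channel, stood at 167, 169 and 171 CPM in the monolayers and 1.99, 1.62 and 1.78 CPM in the spheroids, a 93-fold fall without overlap. Col8a1, a short-chain collagen, fell 39.5-fold, Mfap4, a microfibril protein, 36-fold and Dpp4, a surface peptidase, 33.9-fold. All of these were lower at 96 h too, by log2 changes of -2.92, -5.05, -3.33, -3.86 and -3.27.

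On the side of the rises, Rbp7, a retinol-binding protein, had 2 counts in monolayers and 15.9, 14.4 and 13.8 CPM in spheroids, a ratio of 247 (95% interval for counting error, 67.9 to 2044). Them5, a mitochondrial thioesterase, had 1 count and 13.1, 14.6 and 16.4 CPM, a ratio of 488 (95% interval for counting error, 87 to 19303).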
